A study of Nothobranchius furzeri with 15 samples.

Results

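Of 1810 circular RNAs (circRNAs) counted in brain and muscle of the turquoise killifish, 76 were read in muscle and were nearly absent from brain. They were chosen by their reads: 10 or more circular reads summed over the 6 muscle libraries and at most 1 over the 9 brain libraries. Together they had 2665 circular reads in muscle, 18.6% of all circular reads there, and 19 in brain, where 57 of them had 0 reads and 19 had 1. The 76 were divided by the linear reads at the same position in brain: 14 had fewer than 30 and 62 had 30 or more. The contrast of muscle with brain chose these circRNAs, so it is described here and not tested.

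The fish were Nothobranchius furzeri of 1 strain, GRZ-AD, with no treatment given in the labels. Brain and muscle were sampled at 3.5, 8.5 and 14 weeks of age, with 3 brain libraries and 2 muscle libraries at each age, and total RNA freed of ribosomal RNA was sequenced. The labels do not say whether a library came from 1 animal or from several, nor which muscle was taken, so p-values below measure only the spread between these libraries, which may be technical. The study asked how circRNAs differ between tissues and ages in this short-lived vertebrate.

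A circRNA forms when the spliceosome joins the end of an exon back to the start of the same or an upstream exon, which closes the RNA into a loop without free ends. A read across that back-splice junction is counted as circular, and reads of the ordinary transcript at the same position are counted as linear. Loops without ends resist exonucleases that degrade linear RNA, so they can build up in cells that rarely divide, such as neurons and muscle fibres. Skeletal muscle fibres are packed with sarcomeres, in which titin, nebulin, myosin and the proteins of the Z-disc and M-band hold the filaments in register, and membrane channels and calcium pumps control contraction. Host roles given below are those known from mammals unless another species is named.

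Circular reads totalled 1343 to 4269 per muscle library and 2095 to 4400 per brain library. Linear reads totalled 76515 to 122098 and 80405 to 135698. As counts-per-million of the linear total (CPM), linear reads at sarcomere genes were 242051 to 292998 in muscle, while the neuronal genes snap25 and syt1 had 52.0 to 235 there against 27001 to 36897 in brain. Brain libraries 2 and 3 of 3.5 weeks stood apart, with 21551 and 11660 CPM of linear reads at sarcomere genes against 995 to 2376 in the other 7 brain libraries. They held 6 of the 19 brain circular reads, and they held over 50% of the brain linear reads for 22 of the 76 positions, although they made up 21.3% of brain linear reads in all. Without these libraries 89 circRNAs met the rule, 13 more than with them, and 20 of the 76 positions had fewer than 30 brain linear reads. What part muscle RNA in those libraries plays in the brain values was not tested.

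The 76 circRNAs came from 64 host genes, and 5 lay at positions with no annotated host. Both ends lay in annotated exons for 66 (86.8%), against 161 of the other 216 circRNAs with 10 or more muscle reads (74.5%) and 80.9% of all 1810. The distance between the ends had a median of 3960 bp, close to the 3977.5 bp of the other 216, and ran from 268 bp at asb16 to 228704 bp at cadm1a.2. Their median circular share in muscle, circular reads over circular plus linear reads, was 4.76%, against 19.7% for the other 216. A share above 10% was reached by 25 of 76, against 158 of 216. Linear reads were higher at their positions, with a median of 375.5 summed over the muscle libraries against 97. Reads were seen in all 6 muscle libraries for 13 circRNAs, in 5 for 21, in 3 or 4 for 39 and in fewer than 3 for 3.

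Some circRNAs sat at the edges of the rule. With exactly 10 muscle reads, 8 were just inside, among them filip1l.1, plxna3, ank2b.1 and scn4aa.2, and 13 with 9 reads were just outside, among them cpt1b, agl and ghr.1. A further 18 had enough muscle reads but 2 brain reads, the most read being slc7a1a with 123, mef2ca.1 with 85 and lrrk2 with 41. On linear reads in brain, LOC107388760 with 28 was the highest below the border, and asb2a.1 with 31 was the lowest above it.

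Among the 14 positions with few linear reads in brain, the circRNA of myotilin, a Z-disc protein that binds alpha-actinin and filamin, had the most circular reads. This circRNA, myot.2 (chromosome 2, 67185386 to 67188819, plus strand, both ends exonic), was read 14 and 14 times in the libraries of 3.5 weeks, 38 and 38 times at 8.5 weeks and 16 and 21 times at 14 weeks. Both libraries of 8.5 weeks lay above all others in raw reads. Their linear totals, 122098 and 100841, were also above the 97187 and 76515 of 14 weeks, so raw reads overstate the gap between these ages. Its share in muscle was 23.0% (exact 95% interval 19.8 to 26.6, counting error only), with 471 linear reads in muscle and 15 in brain. With only 15 linear reads in brain, a count of 0 circular reads allows a share of up to 20.0% by the limit of 3 counts and 21.8% by the exact interval, so this depth sets a loose limit.

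Other sarcomere hosts in this class were obsl1b, an obscurin-like adaptor that links titin and the M-band, and mypn, myopalladin, a Z-disc protein that binds nebulin. The obsl1b circRNAs obsl1b.1 and obsl1b.2 shared a start on chromosome 9 (300332) and ended at 301847 and 308919. They had 12 and 21 circular reads in muscle against 584 and 486 linear reads, and 3 linear reads each in brain. All 12 reads of obsl1b.1 came from the libraries of 8.5 weeks, 7 and 5, whereas obsl1b.2 had 8 and 0, 4 and 6, and 2 and 1 over the ages. Myopalladin had 11 circular reads in 4 libraries, with 8 linear reads in brain.

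The class also held hosts of protein turnover, transport and the actin cytoskeleton. The circRNA of asb16, a SOCS-box protein of the kind that brings substrates to ubiquitin ligases, spanned 268 bp (chromosome 3, 9484539 to 9484806). It was not read at 3.5 weeks, was read 4 and 15 times at 8.5 weeks, and 0 and 1 times at 14 weeks. That of slc43a1b, a transporter of large neutral amino acids, had 42 reads in all, and that of wfs1a, the endoplasmic reticulum protein wolframin, had 34. The circRNA of mical2, which oxidizes actin and so takes filaments apart, had 11 reads, 9 of them in library 1 of 8.5 weeks.

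For 5 of the 14 the host kept only an identifier in the sources used, and si:dkey-71d15.2 had a symbol without an assigned role here. LOC107388760 (chromosome 4, 20084732 to 20094096) had the highest circular share of all 76, 53.6% (39.7 to 67.0), with 30 circular and 26 linear reads in muscle. LOC107388600, with 17 circular and 26 linear reads, was second among the 14 at 39.5%. These were the 2 circRNAs of the class whose muscle interval lay above the brain interval, and their linear levels differed least between tissues, 1.49 and 2.78 times as high in muscle. LOC107386401 and LOC107395268 had no read at 3.5 weeks, 10 and 4 and 9 and 6 reads at 8.5 weeks, and 2 and 6 and 1 and 1 at 14 weeks. The lowest share of the class was 1.35% at LOC107381139, with 20 circular and 1465 linear reads. All 14 had a higher linear CPM in muscle than in brain, up to 312 times at obsl1b.1.

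**Figure D1:**
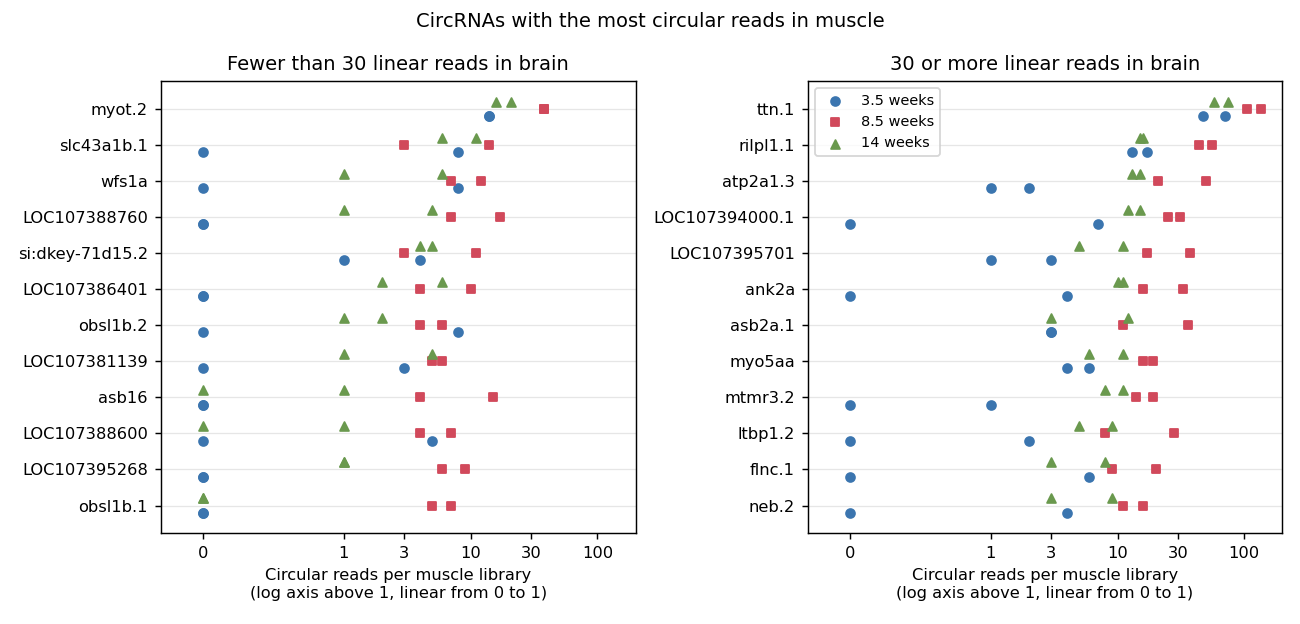
Circular reads in each of the 6 muscle libraries (x axis, log above 1 and linear from 0 to 1) for the 12 circRNAs with the most muscle reads in each class; each point is 1 library, with 2 libraries per age. For myot.2, ttn.1, rilpl1.1 and atp2a1.3 both libraries of 8.5 weeks lay above the other 4, and 0 reads were found at 3.5 weeks for several, such as asb16, LOC107388760 and obsl1b.1. Reads are not scaled for library size.

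In the class of 62, the sarcomere gave the circRNA with the most reads of all 76. Titin, the giant spring that spans from Z-disc to M-band, hosted ttn.1 (chromosome 10, 31623386 to 31628418, minus strand, both ends exonic). Its circular reads numbered 70 and 47 in the youngest libraries, 136 and 105 at 8.5 weeks and 58 and 74 at 14 weeks, the highest raw values being those of 8.5 weeks. As CPM of the scaled linear library size they were 683 ± 320, 952 ± 18.2 and 744 ± 255 at the 3 ages (SD, n = 2 per age). Those 490 reads were 2.08% of the reads at the position, against 1 of 448 in brain (0.223%, exact 95% interval 0.00565 to 1.24). Of its 447 linear reads in brain, 84.3% were in libraries 2 and 3 of 3.5 weeks. The second titin gene hosted ttn.2.3 with 14 circular reads beside 15751 linear reads. Reads that fit both titin genes could have been split between them, so these counts are uncertain.

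Other sarcomere circRNAs had few circular reads beside abundant linear ones. Nebulin, which runs along the thin filament, hosted neb.2 (chromosome 9, 24536740 to 24537742) with 43 circular reads and a share of 0.405%. The fast-muscle myosin-binding protein mybpc2b had 30 reads (0.203%), and the M-band proteins myom2b and myom2a, which cross-link myosin, had 15 (0.0972%) and 12 (0.349%). At neb.2, mybpc2b, myom2b and myom2a, 75.8% to 85.7% of the brain linear reads lay in the same 2 young brain libraries. Filamin C, the actin cross-linker of the Z-disc, differed: flnc.1 had 46 circular reads, 372 linear reads in muscle, and 65 brain linear reads of which 15.4% were in those libraries. At the muscle ratio of circular to linear reads, the brain reads of neb.2, mybpc2b, myom2a and myom2b would go with 0.263 to 1.16 circular reads, so at the brain level of these hosts a circular share like that of muscle was not detectable. The circRNA asb2a.1, from a SOCS-box gene whose product in mammals targets filamins for degradation, had 68 circular reads and 31 brain linear reads, 93.5% of them in the same libraries.

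Calcium handling and excitability gave 6 circRNAs. The calcium pump of the fast-muscle sarcoplasmic reticulum, atp2a1, hosted atp2a1.3 (chromosome 6, 42628533 to 42633424) and atp2a1.2, with 102 and 17 circular reads. The reads of atp2a1.3 were 2 and 1 at 3.5 weeks, 50 and 21 at 8.5 weeks and 13 and 15 at 14 weeks, so the ages did not overlap in raw reads. The libraries of 8.5 weeks were larger, with scaled linear sizes of 140949 and 111809 against 102929 and 80064 at 14 weeks. Raw reads therefore overstate the gap between these 2 ages. The skeletal-muscle sodium channel scn4aa, which fires the action potential, hosted 3 circRNAs on chromosome 16: scn4aa.1 and scn4aa.3 with 30 reads each and scn4aa.2, which shares the start of scn4aa.1, with 10. The reads of scn4aa.3 stayed between 4 and 6 in every muscle library. The sodium-potassium pump subunit atp1a2a hosted atp1a2a.1 with 33 reads beside 5069 linear reads. The circRNAs of atp2a1, flnc, obsl1b, ltbp1 and mtmr3 overlap within each host, as do scn4aa.1 and scn4aa.2, so their linear reads are not separate measurements of the host. The third of that gene, scn4aa.3 (29042414 to 29051319), overlaps neither. The 2 mtmr3 circRNAs had the same start and ended at 5287750 and 5287754 on chromosome 19.

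**Figure D2:**
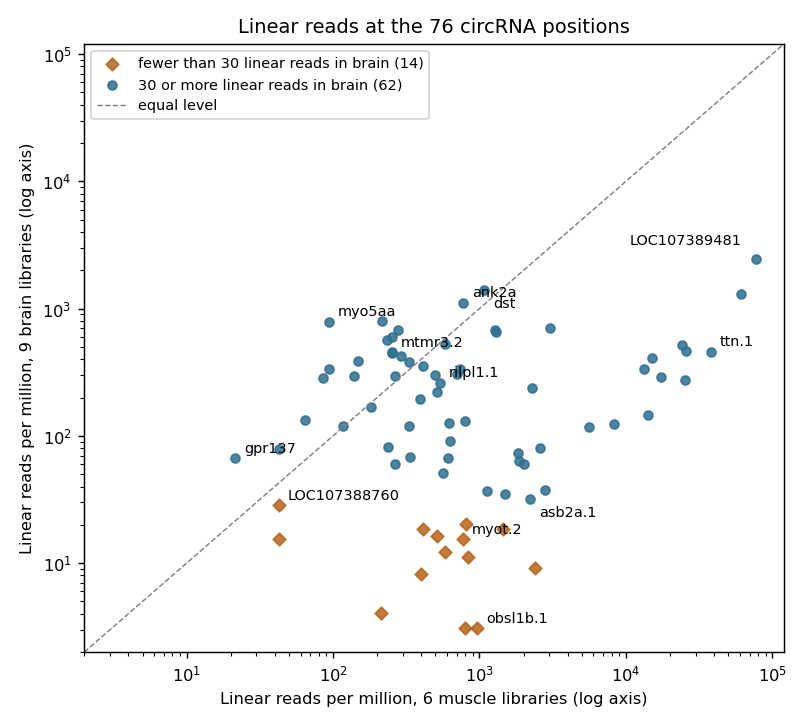
Linear CPM, over the tissue's summed linear total, at each of the 76 positions, in the 6 muscle libraries (x axis, log) and the 9 brain libraries (y axis, log); each point is 1 position, and the dashed line marks equal levels. All 14 positions with few brain reads lie below the line, and 20 of the other 62 lie above it, myo5aa farthest.

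For 20 of the 62 the host had a higher linear CPM in brain than in muscle, yet the circRNA was read in muscle. The most distant was myo5aa, whose host is myosin Va, a motor that carries vesicles and organelles along actin and is abundant in neurons. This circRNA (chromosome 11, 1070208 to 1075896, plus strand, both ends exonic) gave 4 and 6 circular reads in the youngest libraries, 16 and 19 at 8.5 weeks and 11 and 6 at 14 weeks. In muscle it had 62 circular and 57 linear reads, a share of 52.1% (42.8 to 61.3). In brain it had 0 circular and 769 linear reads, which allows a share of up to 0.39% by the limit of 3 counts and 0.479% by the exact 95% interval. Linear reads were 8.41 times as high in brain in CPM, and at the muscle ratio 836 circular reads would have been counted there.

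Ankyrin-B, an adaptor that anchors channels and transporters to the membrane skeleton in muscle and neurons, showed the same contrast. Its circRNA ank2a (chromosome 10, 35667771 to 35672767) had 0 and 4, 33 and 16, and 11 and 10 reads at the 3 ages. The muscle share was 13.6% (10.8 to 16.8), against 1 of 1091 reads in brain (0.0917%, up to 0.51). Signalling hosts followed: mtmr3, a phosphatase of membrane phosphoinositides, mapk8b, the stress kinase JNK, and gab1, a docking adaptor below growth factor receptors. Muscle shares were 25.7% at mtmr3.2 and 20.2% at mapk8b, with 0 of 443 and 0 of 581 reads in brain. At gab1 the share was 35.5% in muscle and 0.847% in brain, where 1 read was circular, at nearly equal linear levels of 116 and 120 CPM.

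The rest of the 20 spanned many functions. Splicing was represented by hnrnpm, with 18 circular reads in muscle and a share of 25.7%, and metabolism by sirt4, a mitochondrial sirtuin, with 35.0%, and aclyb, the citrate lyase that makes cytosolic acetyl-CoA, with 8.92%. Hosts best known from neurons or adhesion were plxna3, a semaphorin receptor, cadm1a, an immunoglobulin-type adhesion molecule, and dst, dystonin, which links filament systems, with shares of 5.56%, 9.66% and 3.40%. The kinase akt2 of insulin signalling and the deacetylase hdac9, a repressor of MEF2 factors, had 7.29% and 9.87%. The exact 95% interval of the muscle share lay above that of the brain share for all 20, and for 38 of the 62 in all. The rule set the circular reads of both tissues, so these counts and the brain reads expected at the muscle ratio describe the choice. They do not test it. At the muscle ratio, 3 or more brain reads would be counted for 43 of the 62, and for 3 of the 14 with few linear reads. For the 30 others under 3 circular reads would be counted, among them LOC107389481 and ak1, which had 2398 and 1279 linear reads in brain and the lowest muscle share and the second lowest, 0.0275% and 0.0589%.

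**Figure D3:**
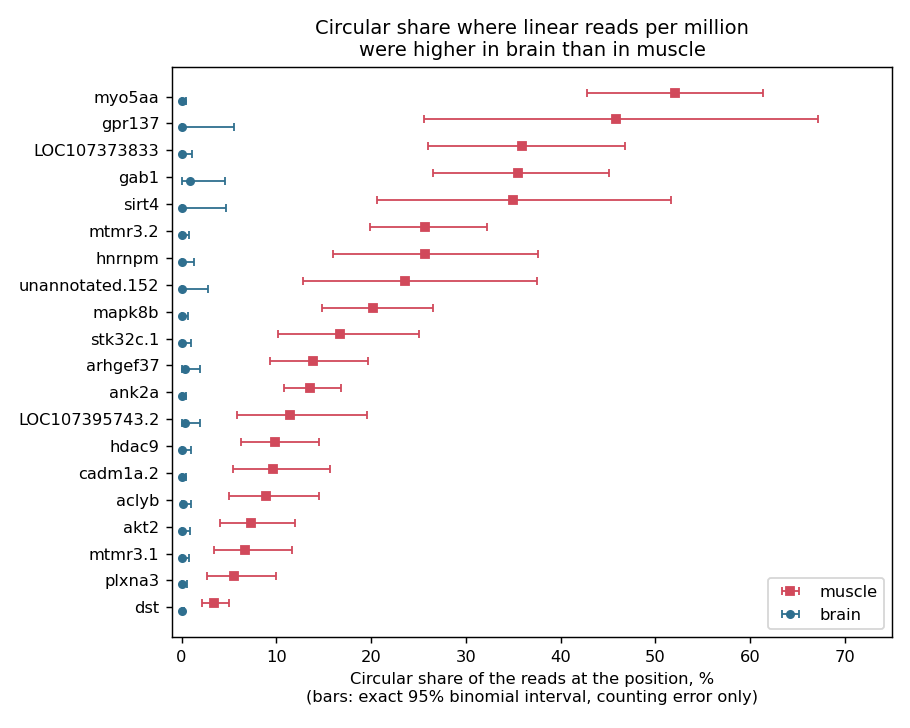
Circular share of the reads at the position (x axis, %) in muscle and brain for the 20 circRNAs whose linear CPM was higher in brain; points are pooled over the 6 muscle or 9 brain libraries and bars are exact 95% binomial intervals, which cover counting error only. Every muscle interval lies above the brain interval of the same circRNA, from 3.40% at dst to 52.1% at myo5aa; these circRNAs were chosen for this contrast.

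Between these extremes lay hosts read in both tissues and higher in muscle. The circRNA rilpl1.1, from a Rab-binding gene of the RILP family that acts at lysosomes and cilia, was second in reads among all 76 (chromosome 8, 6268030 to 6269829). It had 17 and 13, 56 and 44, and 16 and 15 reads, so the libraries of 8.5 weeks lay well above the rest. Its share was 33.1% (28.9 to 37.4) in muscle and 0.389% (0.00985 to 2.15) in brain, and linear reads were 2.04 times as high in muscle. The latent TGF-beta binding protein ltbp1, which stores the growth factor in the matrix, hosted ltbp1.2 with 52 reads and a share of 26.4%. The mRNA-decay factor rc3h2 (roquin-2) had 27 reads, the growth hormone receptor ghr.2 had 26, and the splicing factor mbnl1 had 23; its fly counterpart muscleblind is known for an abundant circRNA. Further hosts were keap1, the sensor of oxidative stress, nr3c1, the glucocorticoid receptor, and piezo1, a channel opened by membrane stretch, with 21, 12 and 19 reads.

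LOC107394000.1 with 90 reads and LOC107395701 with 74 (chromosome 10, 28579892 to 28585105) were the most read with no gene name beyond an identifier. LOC107380889, which the file calls dystrophin-like, had 19 reads, 14 of them in library 3 of 8.5 weeks. The lowest share of all 76 was 0.0275% at LOC107389481, with 13 circular and 47194 linear reads. Its linear count was 7824 to 7897 in all 6 muscle libraries, the highest counts of the linear table, and at ak1, adenylate kinase 1 of the muscle ATP buffer, it reached 7409. Whether these linear counts had reached a limit of the counting was not tested.

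Of all 292 circRNAs with 10 or more muscle reads, 76 met the rule. Of the gene lists compared, sarcomere and Z-disc genes had 12 of their 14 such circRNAs among the 76, and calcium handling and excitability 6 of 9. The sarcomere circRNAs left outside were flnc.2 and mylk4a.1, with 1319 and 208 circular reads in muscle and 153 and 6 in brain. The count of 12 is thus not a share of reads. Hosts with several circRNAs, such as flnc, obsl1b and scn4aa, count more than once. Energy metabolism had 1 of 5 (ak1), the dystrophin complex and membrane linkage 3 of 4 (ank2a, ank2b.1 and tln2a.2, a talin that ties integrins to actin), and actin regulators 3 of 6 (cap2.1, filip1l.1 and svilc). The list of muscle transcription factors and chromatin genes had 2 of 7, the deacetylase hdac9 and the splicing factor mbnl1. Growth signalling had 2 of 8 and ubiquitin and proteostasis genes 0 of 3. In all, 29 of the 76 were in a list and 47 in none. Fibroblast, endothelial, nerve and keratinocyte marker genes gave no circRNA with 10 or more muscle reads. Their linear reads summed over muscle were 4544, 106, 77 and 66, so linear RNA of other cells was present, mostly at fibroblast markers. Blood, adipocyte and satellite cell markers had no circRNA counted, so those cells were not checked.

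The age course was tested in muscle, and the rule did not look at single ages. Its 10 reads were summed over ages, however, and could come from a single age. All reads of obsl1b.1 were of 8.5 weeks, and all those of akt2 were of 3.5 weeks. Counts of highest and of absent levels by age, and changes of such circRNAs, are therefore not independent of the rule. The other 216 met the same limit of 10 muscle reads. Summed circular reads of the 76, as CPM of the linear library size scaled by TMM (the CPM used for ages below), were 2714 and 2567 at 3.5 weeks, 5853 and 5983 at 8.5 weeks and 3060 and 4784 at 14 weeks. The ages did not overlap: the values were lowest at 3.5 weeks and highest at 8.5 weeks. The other 216 circRNAs followed the same order, with 11361 and 10714, 19213 and 18943, and 11299 and 15400, except that the first library of 14 weeks lay within the range of 3.5 weeks. As a part of all circular reads, the 76 made up 15.6% and 16.0%, 19.3% and 20.2%, and 17.2% and 19.7%. In bulk tissue fewer fibres of a kind and less RNA per fibre cannot be told apart. Linear reads at the fibroblast markers postn and col5a1 were 9421 to 11673 CPM at 3.5 weeks, 5002 to 6073 at 8.5 weeks and 5508 to 8268 at 14 weeks. What part a changing mix of cells plays in the age course was not tested.

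More of the 76 were detected at the later ages: 30 and 39 at 3.5 weeks, 71 and 65 at 8.5 weeks and 57 and 67 at 14 weeks. Thinned to the circular total of the shallowest library, the numbers were 30 and 37.9, 57.5 and 59.1, and 53.6 and 61.5, so 3.5 weeks stayed lowest at equal circular totals; linear totals were not matched. At 3.5 weeks 27 of the 76 had 0 reads, against 1 at 8.5 weeks and 3 at 14 weeks. Among the other 216 these numbers were 48, 9 and 13, so absence was also most frequent at 3.5 weeks there. The highest level was at 8.5 weeks for 52 (68.4%), at 3.5 weeks for 17 and at 14 weeks for 7, and among the other 216 it was at 8.5 weeks for 121 (56.0%).

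**Figure D4:**
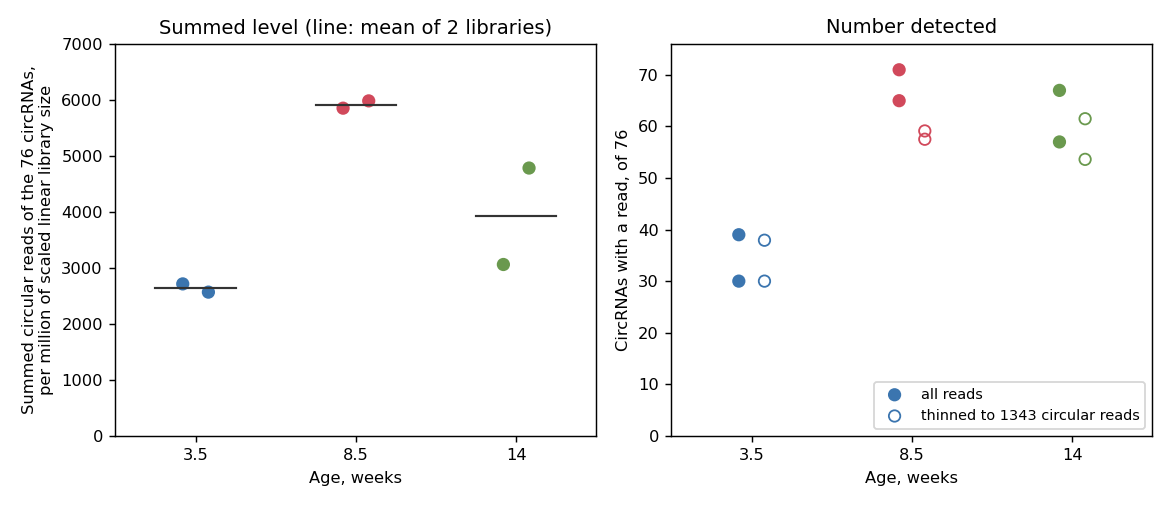
Left, circular reads of the 76 circRNAs summed per muscle library, as CPM of the scaled linear library size, by age in weeks; points are libraries and lines are means of 2. Right, number of the 76 with at least 1 read, from all reads (filled) and after thinning to 1343 circular reads (open); the libraries of 3.5 weeks are lowest in both panels.

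From 3.5 to 8.5 weeks, 42 of the 76 had both later libraries above both earlier ones and 5 had both below; over all 292 circRNAs with 10 or more muscle reads these were 46.2% and 6.85%. The median log2 ratio was 1.09 for the 75 with a ratio or bound, counting those with 0 reads at 1 age at the bound set by 3 counts over the group, and 0.76 for the other circRNAs. Over those of all 292 with a ratio or bound this median was 0.92. The median fitted log2 change of the 292, which uses no such bound, was 1.23, or 0.80 when library sizes came from the circular reads. It includes 75 circRNAs with 0 reads at 3.5 weeks. As a part of all circular reads the 292 made up 82.0% at 3.5 weeks and 83.3% at 8.5 weeks.

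Only atp2a1.3, from the calcium pump gene, rose past the threshold in circular reads between 3.5 and 8.5 weeks, among 4 of 292 called in edgeR's quasi-likelihood test (1.37%). Its mean level was 17.8 ± 11.5 CPM in the younger and 271 ± 118 CPM in the older fish (SD, n = 2 per age). With the reads of each age pooled, 3 and 71, the ratio per scaled library size was 16.8 (counting interval 5.53 to 83.6). The log2 change in edgeR was 3.91 (SE 0.88) with a Benjamini-Hochberg adjusted p of 0.0455. Leaving out 1 library ended the edgeR call in 4 cases: both libraries of 8.5 weeks (adjusted p = 0.337 without library 1 and 0.419 without library 3) and both of 14 weeks (0.125 and 0.119). At an unadjusted p under 0.05 there were 17 of the 76, against 53 of 292 (18.2%). DESeq2 called 26 of 292, 7 of them among the 76: atp2a1.3, LOC107395701, ank2a, mtmr3.2, LOC107388760, LOC107394000.1 and ltbp1.2, all higher at 8.5 weeks.

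Most of these circRNAs had few reads at 3.5 weeks. LOC107394000.1 had 7 and 0 reads then, 31 and 25 at 8.5 weeks and 12 and 15 at 14 weeks, so 1 young library held all its reads of that age. That of mtmr3.2 had 0 and 1 reads, then 19 and 14, and 11 and 8 at 14 weeks, so both later ages lay above 3.5 weeks. LOC107395701 had 1 and 3, 37 and 17, and 11 and 5. Its libraries of 8.5 weeks lay above the other 4. For ltbp1.2 the reads were 0 and 2, 28 and 8, and 5 and 9. LOC107388760 was not read in the youngest libraries and had 7 and 17 reads at 8.5 weeks, at least 5.69-fold higher by the floor of 3 counts over the group. It met the rule's limit on muscle reads only through the libraries of 8.5 weeks, where it was highest. Its higher level there and its DESeq2 call are therefore not independent of the rule. In edgeR the adjusted p-values were 0.138 for mtmr3.2 and LOC107395701, 0.202 for ank2a, 0.205 for ltbp1.2 and LOC107388760 and 0.258 for LOC107394000.1. The most read circRNAs changed less: the ratio of pooled reads at 8.5 to 3.5 weeks was 1.47 at ttn.1 (1.17 to 1.84), 1.93 at myot.2 (1.24 to 3.10) and 2.37 at rilpl1.1 (1.56 to 3.70), intervals for counting error only.

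Of the 75 with a ratio or bound, 18 were lower at 8.5 than at 3.5 weeks, against 63 of 208 other circRNAs. Of the 18, 0 passed in edgeR. That of akt2 had 6 and 8 reads at 3.5 weeks and 0 in the other 4 libraries, at least 6.56-fold lower at 8.5 weeks (edgeR adjusted p = 0.258). That of piezo1.1 had 2 and 13, then 1 and 0, and 0 and 3, so 1 library held most of its reads. That of keap1 had 0 and 14, 2 and 0, and 0 and 5, again with most reads in 1 library, a pooled ratio of 0.102 (0.0112 to 0.443). LOC107395743.2 had 6 reads at 3.5 and 1 at 8.5 weeks, and unannotated.103 had 6 and 2. LOC107389481 had 4 and 3, 2 and 4, and 0 and 0. Without the libraries of 3.5 weeks, akt2, piezo1.1, keap1, LOC107395743.2, unannotated.103 and LOC107389481 would have had fewer than 10 circular reads. Their lower values at 8.5 weeks are therefore not independent of the rule. Neither gab1 (0 and 12, 6 and 4, 7 and 10) nor scn4aa.3 showed an age that stood apart from the others.

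After 8.5 weeks levels were mostly lower again. Of the 73 with a ratio or bound, 59 were lower at 14 than at 8.5 weeks, against 146 of 202 other circRNAs. The median log2 ratio of the 73 was -0.65, close to the -0.61 of the other circRNAs. No circRNA passed in edgeR, 0 of the 76 and 0 of 292 (0.0%), and DESeq2 called 0 as well. At an unadjusted p under 0.05 there was 1 of the 76, rilpl1.1, whose log2 change was -1.20 (SE 0.55, edgeR adjusted p = 1.0), and 3 of 292 (1.03%). Next by p were obsl1b.1, with no reads at 14 weeks, and LOC107389481. From 3.5 to 14 weeks 0 of the 76 passed in edgeR, against 1 of 292 (0.342%), and DESeq2 called 0 of the 76. The smallest p-values, among 6 under 0.05 unadjusted (all circRNAs 8.9%), belonged to atp2a1.3 (log2 change 3.11), mtmr3.2 (3.98) and akt2. Their edgeR adjusted p-values were 0.418, 0.455 and 0.480.

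The circular share was tested apart from the level of the host. From 3.5 to 8.5 weeks 1 of the 76 rose past the threshold, ak1, the 1 of 289 positions tested that did (0.346%). Its circular reads were 0 and 0, 10 and 8, and 0 and 4 over the ages, beside 3886 to 7409 linear reads. It thus met the limit of 10 circular reads only through the libraries of 8.5 weeks, where it was highest. The share was 0.126% at 8.5 weeks, and 0 at 3.5 weeks allows up to 0.0225% by the limit of 3 counts, so it was at least 5.59-fold higher. The edgeR adjusted p was 0.0208, and it rose to 0.132, 0.220 and 0.521 without library 3 of 3.5 weeks and libraries 1 and 3 of 8.5 weeks, and to 0.940 without the filter on low counts. Below ak1 the smallest p-values were those of neb.2 (log2 change 3.52, edgeR adjusted p = 0.0673), atp2a1.3 (3.36, 0.0874) and myom2b (0.0874). Of these, myom2b also met the limit of 10 circular reads only through the libraries of 8.5 weeks. With a minimum of 30 circular reads, which tests fewer positions, neb.2, atp2a1.3, ttn.1, ltbp1.2, LOC107395701 and LOC107394000.1 passed, as did circRNAs outside the 76. Here neb.2, ltbp1.2 and LOC107395701 reached 30 circular reads only through the libraries of 8.5 weeks, where they were highest. At an unadjusted p under 0.05 there were 21 of the 76 against 45 of 289 (15.6%).

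No share passed in edgeR from 8.5 to 14 weeks (0 of 76, 0 of 289 or 0.0%) or from 3.5 to 14 weeks (0 of 76, 0 of 289 or 0.0%). Unadjusted p-values under 0.05 numbered 3 and 13 of the 76, against 2.42% and 10.4% of all tested. The smallest from 8.5 to 14 weeks were LOC107389481, obsl1b.1 and asb16, whose 19 circular reads at 8.5 weeks compared with 1 at 14 weeks (share 8.92% and 0.575%). From 3.5 to 14 weeks they were LOC107389481, myom2b and akt2, whose share was 22.2% at 3.5 weeks (14 of 63 reads) and 0 at 8.5 and 14 weeks. The circRNAs obsl1b.1 and asb16 reached 10 circular reads only through the libraries of 8.5 weeks, and akt2 only through those of 3.5 weeks. LOC107389481 would have had fewer than 10 without the libraries of 3.5 weeks or without those of 8.5 weeks, and myom2b without those of 8.5 or of 14 weeks.

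Linear reads of the hosts changed in both directions between 3.5 and 8.5 weeks. Among the other circRNAs with 10 or more muscle reads, 11 of 213 positions tested rose and 7 fell in edgeR. Of the 76 positions 6 rose and 6 fell, against 2.71% and 2.79% of all 1253 tested, 5.51% in either direction. Those that fell were all but 1 sarcomere hosts: neb.2 (log2 -1.21), myom2a (-1.34), myom2b (-0.73), ttn.1 (-0.78) and ttn.2.3 (-0.61), besides filip1l.1 (-1.36), whose product in mammals is related to a filamin-binding protein. Over the sarcomere list 9 of 24 positions fell and 0 rose, with a median of -0.28, against a median of -0.05 over all positions. Several of the 24 share a host, such as those of ttn.2, flnc and neb, so they are not separate measurements. Nebulin linear reads were 25222 ± 670, 10916 ± 525 and 17804 ± 928 CPM at the 3 ages (SD, n = 2 per age), and the ages did not overlap. Its circular reads moved in the opposite direction from 3.5 to 8.5 weeks, from 0 and 4 to 16 and 11, as did those of ttn.1.

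Those that rose were LOC107381139 (log2 1.99), ank2a (1.70), zbtb16b.2 (1.54), mical2 (1.51), LOC107395268 (1.14) and ank2b.1 (1.14), the zinc-finger repressor zbtb16 and the ankyrins being the named regulators and scaffolds among them. At ank2a linear reads went from 323 ± 168 to 1026 ± 34.2 CPM, and LOC107381139 went from 890 ± 63.0 to 3535 ± 504 (SD, n = 2 each). The edgeR adjusted p was 2.1e-04 for ank2a, 5.4e-07 for LOC107381139 and 7.1e-07 for neb.2. In edgeR the call was lost without 1 library for zbtb16b.2, mical2, LOC107395268, ank2b.1, filip1l.1 and ttn.1, the highest adjusted p being 0.137. The libraries were 3.5 weeks 1 (zbtb16b.2, mical2 and LOC107395268), 8.5 weeks 1 (mical2 and ttn.1) and 8.5 weeks 3 (zbtb16b.2, LOC107395268, ank2b.1 and filip1l.1).

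**Figure D5:**
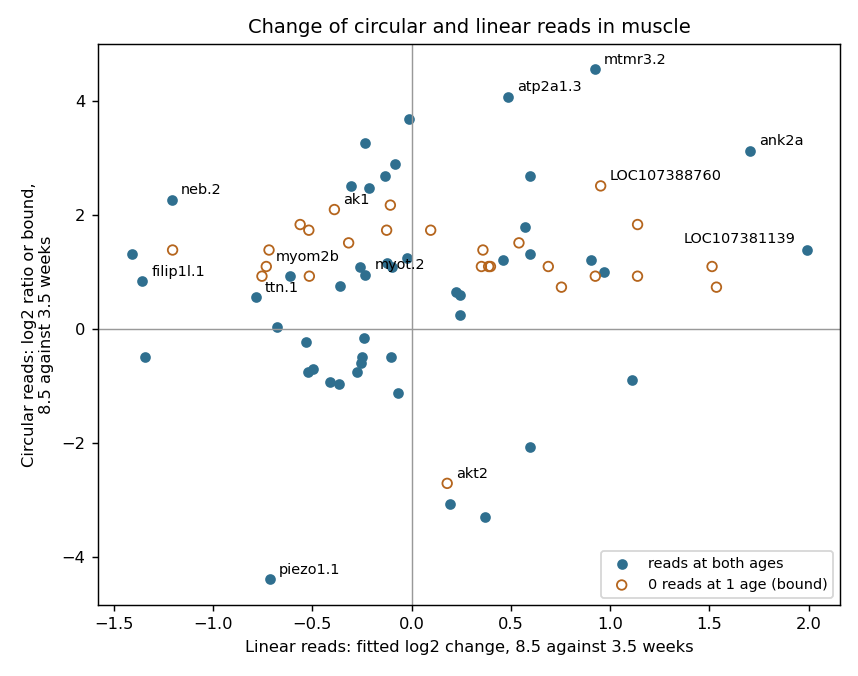
Change from 3.5 to 8.5 weeks in muscle for 74 of the 76 circRNAs, as fitted log2 change of linear reads (x axis) and log2 ratio or bound of circular reads (y axis); each point is 1 circRNA, and open points had 0 circular reads at 1 age, so that their y value is a bound from 3 counts. Of 75 with a ratio or bound, gpr137, which had 0 linear reads at 3.5 weeks, is not drawn, and of the 75, 28 had circular and linear reads higher and 29 had circular reads higher with linear reads lower.

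From 8.5 to 14 weeks 1 of the 76 linear positions passed in edgeR, neb.2, which rose by 0.71 on the log2 scale (adjusted p = 0.0347), among 6 of 1253 (0.479%, with 0.399% higher and 0.0798% lower). At an unadjusted p under 0.05 there were 10 of the 76, against 6.46% of all. DESeq2's size factors ended that edgeR call (adjusted p = 0.0752), as did leaving out library 1 or 3 of the 8.5-week pair or library 2 of the 14-week pair. The replicate block ended it too, but library 2 of 14 weeks was the only muscle library numbered 2. The block took up that library, so the blocked change rested on library 1 of 14 weeks alone. Over the alternatives the log2 change of neb.2 was 0.64 to 0.76. From 3.5 to 14 weeks, 3 of 213 positions of the other circRNAs rose and 6 fell in edgeR. Of the 76, 3 rose and 4 fell, against 1.12% and 1.6% of 1253. Those higher at 14 weeks were ank2a (log2 1.45), LOC107381139 (1.45) and mbnl1 (1.42), and those lower were filip1l.1 (-1.26), LOC107380889 (-1.14), atp1a2a.1 (-0.73) and ttn.1 (-0.64). Without library 2 of 14 weeks 1 of these 7 calls remained, that of LOC107380889, with adjusted p-values of 0.0549 to 0.343 for the other 6. Calls were also lost in edgeR without library 1 of 3.5 weeks (ttn.1, atp1a2a.1 and mbnl1), library 3 of 3.5 weeks (filip1l.1, ttn.1, ank2a and atp1a2a.1) and library 1 of 14 weeks (filip1l.1). With the replicate number as a block, comparisons with 14 weeks again rested on library 1 of 14 weeks alone. Whether calls passed there cannot show how firm they are.

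The authors' deposited table of adult against young muscle gives p-values for 56 of the 76, of which 22 were under 0.05, against 58 of 228 in all (25.4%). After Benjamini-Hochberg adjustment of the authors' deposited p-values, 7 of 228 (3.07%) stayed under 0.05, among them LOC107395701 and neb.2 (both 0.0490). In the authors' deposited table of old against adult muscle 6 of 61 were under 0.05, against 18 of 253 (7.11%), and 0 after adjustment (0.0%).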

How the data were processed

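RNA freed of ribosomal RNA was sequenced from 6 muscle and 9 brain libraries. The authors' deposited tables hold raw circular read counts and linear read counts per circRNA and library, and STAR 2.5.2b is named in the submitters' processing notes. Not given in the sources used here are the circular caller, the genome build of the coordinates, the annotation, the strand of counting and how a linear read was defined. The authors' deposited p-values come from a test the file headers call bbtest, and were adjusted here by Benjamini-Hochberg. Host names came from the file for 23 hosts and from a RefSeq gene table for 29, and 12 kept an identifier.

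Members and gene lists were chosen with earlier results of these data known. Age tests used all 6 muscle libraries in edgeR 4.0.16 (R 4.3.3), quasi-likelihood, with 10 or more reads over muscle, TMM factors from the linear counts, and Benjamini-Hochberg adjustment over all positions tested at a threshold of 0.05. The circular share was tested as circular against linear reads within libraries. DESeq2 1.42.0, circular TMM, other filters, a replicate block and leaving out each library were alternatives. Leaving out positions of 7000 or more linear reads, and leaving out brain libraries 2 and 3 of 3.5 weeks, were chosen after seeing the data. The procedures were tested on simulated data. Intervals are exact 95% binomial (for a ratio of 2 ages, on the split of reads between them) and, like the floor of 3 counts, cover counting error only. All replicate pairs differed by more than sampling noise. Circular totals of 1343 to 4269 per muscle library limit precision.

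Named by rule were the 12 most read circRNAs of each class, those past the threshold (the 10 largest changes per test), the 3 of smallest p where none passed, hosts with 2 or more circRNAs, those nearest the limits of the rule and those of highest and lowest share. Other circRNAs were named for their host's role after their values were seen. No sequence is printed.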

Additional observations from a re-analysis of the deposited data

How the results depend on the processing

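Direction was checked for those of the 76 past the threshold (the 10 largest changes per test), or the 3 of smallest p where none passed. Of these changes, 0 reversed in the alternatives that gave an adjusted p. The numbers called did move. For circular reads from 3.5 to 8.5 weeks, DESeq2 called 26 of all and 7 of the 76, and a minimum of 30 reads called 7 of all. From 3.5 to 14 weeks 2 of all were called with circular TMM, with DESeq2 and without a filter. For the share from 3.5 to 8.5 weeks 0 were called of all and of the 76 without a filter, and likewise 0 and 0 without positions of 7000 or more linear reads, which removes ak1 by construction. A minimum of 30 reads, which tests fewer positions, called 11 of all and 6 of the 76, and from 3.5 to 14 weeks 3 and 1. Among those 6, neb.2, ltbp1.2 and LOC107395701 reached 30 circular reads only through the libraries of 8.5 weeks. For linear reads DESeq2 called 45 from 3.5 to 8.5 weeks and 2 from 8.5 to 14 weeks, and with DESeq2 size factors 0 of the 76 were called from 8.5 to 14 weeks. The other causes were not tested. Leaving out 1 library gave 0 to 21 circular calls from 3.5 to 8.5 weeks (0 to 5 of the 76), 0 to 7 from 3.5 to 14 weeks (0 to 1) and 0 from 8.5 to 14 weeks. The 21 came without library 3 of 3.5 weeks, and 0 without library 1 or 3 of 8.5 weeks. Share calls ranged from 0 to 5 (0 to 4 of the 76) from 3.5 to 8.5 weeks and were 0 in the other comparisons. Linear calls ranged from 30 to 67 (7 to 14 of the 76), 0 to 7 (0 to 2) and 15 to 37 (1 to 8) for 3.5 to 8.5, 8.5 to 14 and 3.5 to 14 weeks. Deviations of the first libraries from their age means correlated at -0.06, 0.01 and -0.13 between ages. With 2 libraries per age this cannot settle whether replicate numbers pair the libraries. With the replicate block there were 10 circular calls and 5 share calls (4 of the 76) from 3.5 to 8.5 weeks. Library 2 of 14 weeks was the only muscle library numbered 2, so the block took it up. Blocked comparisons with 14 weeks thus rested on 1 library of that age, and their calls are not given.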
